A study of Mus musculus with 17 samples.

Results

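The constitutive promoter sites of mouse bone marrow-derived macrophages were 6488 regions in which ATAC-seq, an assay that cuts and tags accessible DNA with a transposase, gave a peak in every one of 17 peak lists and which lay at most 1 kb from where a protein-coding transcript begins, its TSS (transcription start site). They were chosen by peak rank in these lists and by this distance: identical intervals of a list were collapsed to the entry with the best p-value, the 24389 best peaks of each list were kept, which is the number of intervals in the shortest list, and intervals sharing at least 1 bp were merged over the lists. This gave 41150 merged sites, of which the members were 15.8%. A total of 10404 sites had a peak in all 17 lists, and 62.4% of these were members. The other 3916 lay farther from a TSS and are called constitutive distal sites below.

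The cells came from the femurs and tibias of male C57Bl6/J mice aged 6 to 12 weeks and were differentiated with L929-conditioned medium, a source of macrophage colony-stimulating factor. The mice were wild type (WT) or lacked Nur77, the nuclear receptor encoded by Nr4a1, in the whole body (KO). The genotype tag of the KO samples reads "cre", and the study's methods describe a line made by crossing CMV-Cre mice with mice carrying a loxP-flanked Nr4a1, then bred until Cre was lost, with WT littermates as controls. Cells received 100 ng/ml lipopolysaccharide (LPS), the bacterial ligand of Toll-like receptor 4, for 0, 1 or 18 h. The lists numbered 3 each for WT 0 h, WT 18 h, KO 0 h, KO 1 h and KO 18 h, and 2 for WT 1 h, one of them labelled as replicates 1 and 2 together. The labels do not say whether replicates came from separate mice, so p-values measure the spread between these lists. The question was how far the peaks of these promoters keep their place among all peaks when macrophages are stimulated, and whether the place differs without Nur77.

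Promoters of actively transcribed genes are held free of nucleosomes, and many of them, above all those rich in CpG dinucleotides, stay accessible whatever the state of the cell. LPS acts on macrophages in waves: within an hour NF-kB and AP-1 factors reach the genes of cytokines and of feedback inhibitors, and interferon made by the cells then turns on antiviral genes through STAT and IRF factors. Nur77 is itself an immediate-early gene product and binds the NBRE, a monomer site.

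The lists differed in depth, and peaks were therefore compared by rank. In such bulk samples, fewer cells with an open promoter and a less open promoter in each cell cannot be told apart. The background level recovered from the files ran from 0.382 to 9.75 reads per kb, and the weakest peak kept in a list rested on 3 to 69 reads. Depth moved with the groups: 5.11 to 9.75 reads per kb at WT 0 h, 0.382 and 1.61 at WT 1 h, 4.62 to 8.38 at WT 18 h, 0.720 to 7.65 at KO 0 h, 0.593 to 4.14 at KO 1 h and 1.10 to 1.76 at KO 18 h. One list, KO 18 h replicate 1, stood apart, with a median peak width of 135 bp against 338 to 661 bp in the other 16. Without it the number of members was 7509. The promoter of Nr4a1 was not a member, since it had a peak in 12 lists, 6 of the 8 from WT and 6 of the 9 from KO cells. These were all lists at 0 and 1 h and WT 18 h replicate 3 (rank 23241), so only 18 h lists lacked it. A peak there does not check the deletion, whose extent is not given in the sources used here. The promoters of 7 of 8 macrophage markers, among them Csf1r, Adgre1 and Cd68, were members, and that of Lyz2 had a peak in 16 lists. Of 35 markers of T, B, dendritic and epithelial cells, neutrophils, erythroid cells and fibroblasts, 26 had no peak in any list and 2, Cd3d and Tal1, were members. The other 7 had one in some lists, namely Klf1 in 16, S100a8 in 15, Elane and Col1a1 in 14 each, Zbtb46 in 13, Xcr1 in 2 and Pdgfra in 1.

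A few upstream sequences show what these promoters look like. Each is the 150 bases before a TSS, read 5′ to 3′ on the gene's own strand from GRCm38 (mm10), outside every annotated exon and inside the merged site. Capitals mark matches on either strand to 14 motifs, among them the CCAAT box (CCAAT, bound by NF-Y), the GC box (GGGGCGGG, bound by SP and KLF factors), the CRE (TGACGTCA, bound by CREB and ATF factors), AP-1 (TGACTCA), the interferon-stimulated response element (ISRE) core GAAANNGAA, C/EBP (TTGCNNAA), the NBRE (AAAGGTCA) and NF-kB. Rab40c (chr17:25919728-25919877, minus strand) and Tomm40 (chr7:19715439-19715588, minus strand) had peaks among the strongest in every list:
Rab40c: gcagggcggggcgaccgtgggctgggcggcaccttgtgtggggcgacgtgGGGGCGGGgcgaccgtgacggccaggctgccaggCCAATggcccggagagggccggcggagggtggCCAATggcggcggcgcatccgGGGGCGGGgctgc
Tomm40: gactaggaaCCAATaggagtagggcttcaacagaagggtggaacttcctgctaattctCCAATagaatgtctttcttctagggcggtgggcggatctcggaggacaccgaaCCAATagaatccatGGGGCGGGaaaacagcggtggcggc

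Il6 (chr5:30012964-30013113, plus strand) and Cd40 (chr2:165055477-165055626, plus strand) rose early in the order of peaks, and both windows hold an NF-kB match. Ier2 (chr8:84662853-84663002, minus strand) is an immediate-early gene with a CRE that ends 38 bases before its TSS:
Il6: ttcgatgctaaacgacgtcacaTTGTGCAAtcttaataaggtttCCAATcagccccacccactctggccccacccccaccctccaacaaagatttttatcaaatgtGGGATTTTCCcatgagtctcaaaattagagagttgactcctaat
Cd40: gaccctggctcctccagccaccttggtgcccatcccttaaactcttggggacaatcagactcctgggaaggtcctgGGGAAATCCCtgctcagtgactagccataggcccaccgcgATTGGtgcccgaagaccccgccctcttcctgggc
Ier2: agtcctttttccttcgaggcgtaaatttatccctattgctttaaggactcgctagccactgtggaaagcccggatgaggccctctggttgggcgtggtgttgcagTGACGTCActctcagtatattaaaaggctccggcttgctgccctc

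Zbp1 (chr2:173218924-173219073, minus strand) and Rsad2 (chr12:26456453-26456602, minus strand) belong to the interferon response. Trem2 (chr17:48346251-48346400, plus strand), a lipid receptor of macrophages, has an NBRE that starts 68 bases before its TSS:
Zbp1: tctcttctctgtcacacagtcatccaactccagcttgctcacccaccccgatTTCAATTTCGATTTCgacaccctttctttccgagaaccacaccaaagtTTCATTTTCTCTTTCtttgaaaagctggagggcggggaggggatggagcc
Rsad2: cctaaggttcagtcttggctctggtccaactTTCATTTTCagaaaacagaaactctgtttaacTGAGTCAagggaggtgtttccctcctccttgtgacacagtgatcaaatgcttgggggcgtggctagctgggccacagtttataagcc
Trem2: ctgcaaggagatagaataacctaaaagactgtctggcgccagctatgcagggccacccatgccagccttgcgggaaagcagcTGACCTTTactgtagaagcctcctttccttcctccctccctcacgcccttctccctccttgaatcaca

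The members were wide, gene-centred regions. Their median width was 1994 bp (641 to 76929 bp, the widest ones merged from runs of neighbouring peaks), and 6394 of them (98.6%) contained a TSS. The median summit lay 36 bp upstream of the TSS, with quartiles of 107 bp upstream and 21 bp downstream, and 3980 summits (61.3%) lay within 100 bp of it. The members covered the promoters of 7360 of 21842 protein-coding gene symbols (33.7%). Most, 5443, served 1 gene, 1003 served 2 and 42 served 3 or more. Only 111 lay on chromosome X and 1 on chromosome Y.

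Sequence features, which the rule did not use, are given as shares of sites, without a test. In the 201 bp around the summit, the median GC content was 63.7% for members, 51.2% for constitutive distal sites and 63.2% for 4553 promoter sites found in 2 or more but not all lists. A CpG count over 0.6 of that expected from the base composition was found in 81.2% of members, 11.3% of distal sites, 62.6% of the less constant promoter sites and 48.9% of all 54329 protein-coding TSSs. The windows of all TSSs were centred on each distinct start position, not on a summit. Shares of TSSs and of sites are therefore not strictly like for like. The CCAAT box was present in 38.0% of members, 21.4% of distal sites, 19.5% of the less constant promoter sites and 24.6% of all TSSs. GC boxes (25.8% of members against 15.6% of all TSSs), the ETS motif CCGGAAG (17.5% against 8.56%) and the NRF1 motif GCATGCGC (4.55% against 2.21%) were also more frequent in members than over all TSSs. AP-1, by contrast, was found in 3.84% of members and 28.1% of distal sites, and the PU.1 motif GAGGAAGT in 3.22% and 11.03%. The NBRE was rare, in 37 members (0.57%), as it was over all TSSs (0.68%). These shares are descriptions of the letters around each summit, not of bound factors.

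Within each list the members sat near the top. The median member rank, where 1 is the strongest peak and tied peaks share a mid-rank, was 4167 ± 93 at WT 0 h (SD, n = 3) and 4171 ± 73 at KO 0 h (SD, n = 3). The distal sites had a median rank of 8129 ± 254 and 8320 ± 30 in the same groups. Ranks decided membership, so these levels describe the choice and were not tested. At the loose end of the threshold, the member with the worst single rank was Senp7 (24240 in its weakest list, with 4 reads in the list where it had fewest), followed by Slfn3 (24194.5) and Gli1 (24194.5). Just outside, Armc6 (mean rank 1794 in 16 lists), Ubfd1 (2001) and Zzz3 (2383) were promoter sites of high rank that lacked a peak only in KO 18 h replicate 1, the narrow-peak list. That list alone kept 1021 promoter sites from membership, WT 1 h replicate 1-2 kept out 182, and each of the other lists at most 66.

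**Figure D1:**
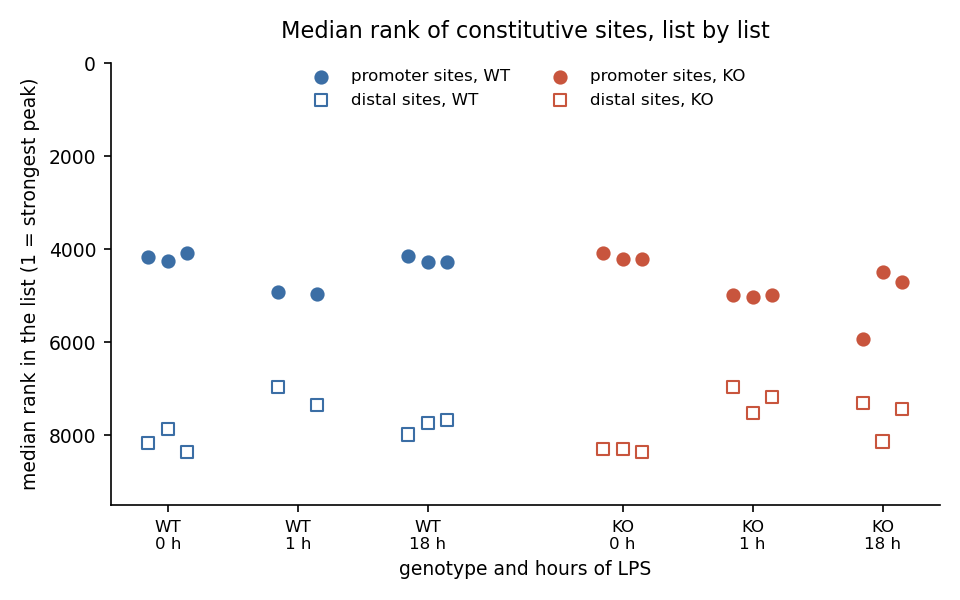
Median rank in each of the 17 lists (vertical axis, inverted, 1 = strongest peak) of the 6488 constitutive promoter sites (filled circles) and the 3916 constitutive distal sites (open squares), by genotype and hours of LPS. Promoter medians sit between 4075 and 4273 in all WT lists at 0 and 18 h and between 4926 and 5022 in all 5 lists at 1 h, while KO 18 h replicate 1 is lowest at 5925.

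A core of 205 members ranked among the first 1000 peaks in all 17 lists, and 1537 ranked among the first 5000. Rab40c, a Rab-family adaptor of ubiquitin ligases, had a mean rank of 19, with 16, 31 and 19 at WT 0 h, 35 and 16.5 at WT 1 h, 17, 13 and 12 at WT 18 h, 22, 12 and 11 at KO 0 h, 18.5, 11.5 and 14.5 at KO 1 h, and 31, 22.5 and 13 at KO 18 h. All its lists overlapped. Its summit held 42 to 980 reads according to the depth of the list, while its rank stayed between 11 and 35. The other members of highest mean rank were Osbp (19, an oxysterol-binding protein), Khsrp (20, an RNA-binding protein), Tomm40 (27, the mitochondrial import channel), Gatad2a (31, a subunit of the NuRD complex), Cnot3 (35, of the deadenylase complex CCR4-NOT), Sp1 (38, the GC box factor itself), the site shared by Mylpf and Tbc1d10b (40), Mtmr4 (40) and the site of BC005624 and Usp20 (44). Sites known only by predicted gene names, 132 in all, were passed over here, and one of these, Gm10800, had the best mean rank of all, 5. No set of artefact-prone regions was removed before the ranking.

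Spread between lists of a group grew down the order. The SD of rank within groups had a median of 564 positions in the best of 4 equal groups of members by mean rank, 1352 in the second, 2087 in the third and 2754 in the last. Among members of mean rank under 12000 it was smallest for Rab40c (7), Osbp and Khsrp, and largest for Emc7 (5704), Inca1 with Kif1c (5441), Irgm2 (5437), Zmiz2 (5293) and Cyb5r1 (5275). Zmiz2 ranked 23089 in KO 18 h replicate 1 and between 1185.5 and 3428.5 in the other 16 lists, so 1 list set its spread.

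At 1 h of LPS the promoters as a class moved down the order while single inflammatory promoters climbed. The median shift was -877 positions for members, 224 for distal sites and -591 for all 10404 sites tested, where a positive shift is toward rank 1. A model of the rank (limma, pooled over genotypes, Benjamini-Hochberg adjustment over all 10404 sites, threshold 0.05) found 240 members moved up (3.70%, against 10.2% of all sites tested) and 935 moved down (14.4%, against 14.4%). Of the distal sites, 818 (20.9%) moved up and 561 (14.3%) down. The share of promoters moved down was thus that of the background, and the share moved up lay below it.

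Ranks are relative, and the split depended on what the members were ranked against. Ranked among the members alone, 405 moved up and 334 down at 1 h, so 54.8% of calls were upward against 20.4% with ranks over the whole list. Ranks among the members alone keep their mean fixed (median shift -36 positions). A near-even split there is largely set by construction. With the caller's fold on a log2 scale, centred on the median of all tested sites, 353 moved up and 778 down (31.2% upward). The percentile in the whole deposited list went the other way, with 33 up and 466 down (6.61% upward). Depth was mostly lower at 1 h, as given above, and with depth as a covariate 130 moved up and 245 down (34.7% upward). The median 1 h shift was then -619 positions for members and -402 for all sites. With the replicate number as a block besides, these medians were -372 and -187. Leaving out a single list took the downward count to 1715 for KO 18 h replicate 1, to 550 for WT 1 h replicate 1-2 and to 582 for WT 0 h replicate 3. The size of the downward count thus depended on the scale and on these lists, while no named member called at 1 h changed sign in any of these fits.

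**Figure D2:**
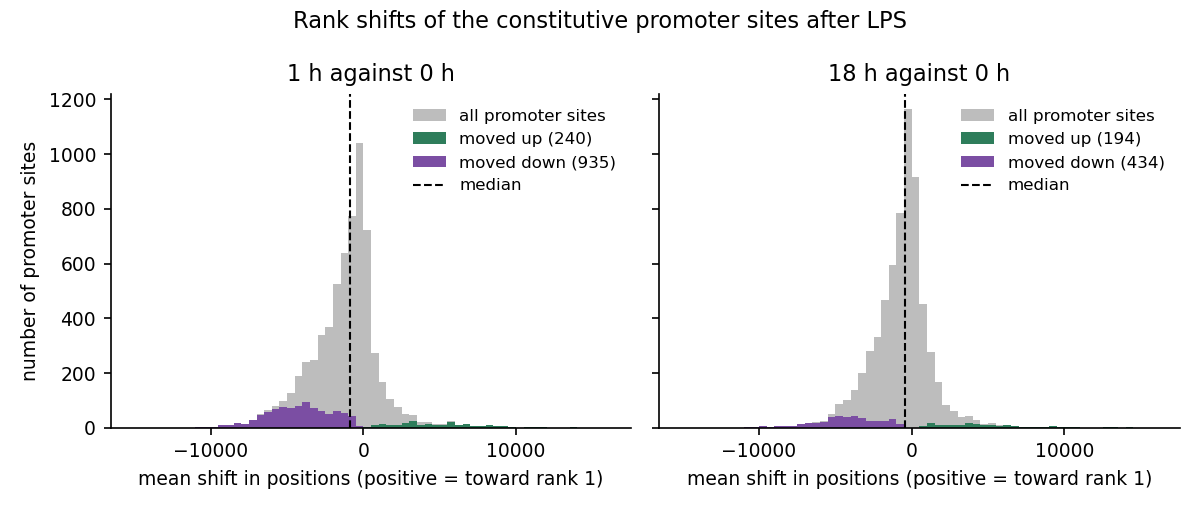
Mean rank shift of the 6488 constitutive promoter sites at 1 h and 18 h of LPS against 0 h (horizontal axis, positions, positive toward rank 1; vertical axis, number of sites in bins of equal width). Grey bars are all members, green and purple bars those moved up or down in the limma model, and the dashed median lies at -877 and -449 (-138 at 18 h without KO 18 h replicate 1).

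The gene of largest upward shift was Ccl4, a chemokine that draws monocytes and T cells. It ranked 20424.5, 14649 and 15816.5 at WT 0 h and 18882, 17833 and 18588 at KO 0 h. After 1 h it ranked 2228.5 and 1016 in WT and 2682.5, 3683 and 2241 in KO lists, and no 1 h list overlapped a 0 h list. The shift was 15453 ± 1375 positions (SE), with an adjusted p of 1.9e-06 in limma, and the exact two-sided permutation test within genotypes gave p = 0.005, the smallest it can give. At 18 h it stood at 6104.5, 7738 and 7862.5 in WT and 11542, 6227 and 3706.5 in KO lists, again clear of every 0 h list.

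Il6, encoding the pyrogenic cytokine whose window above carries C/EBP, CCAAT and NF-kB matches, ranked between 15939 and 22921.5 in the 6 lists at 0 h. It ranked 8262.5 and 4213 at WT 1 h and 8718.5, 6173.5 and 3703 at KO 1 h, a shift of 11844 ± 1527 positions (SE; limma adjusted p = 4.8e-05). Il15, a cytokine for natural killer and memory T cells, moved by 13778 positions, from group means of 15682 in WT and 16841 in KO to 2798 and 2168. Tnfsf9, the ligand of 4-1BB, moved by 11837 positions at 1 h, from means of 14659 and 12993 to 1508 and 2470. At 18 h Tnfsf9 stood at 11968 and 15803, a shift of -59 positions (adjusted p = 0.98).

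Helz2, a helicase coactivator induced by interferon, moved by 14690 positions, Trim30c by 13258, the class I gene H2-Q6 by 12678, Ifit3b by 11741 and Parp14 by 11857. Trim30c, H2-Q6 and Ifit3b belong to families of close copies, and sharing of reads between the copies was not tested. Pik3ap1, an adaptor of PI3 kinase, moved by 13906 positions, but its median summit lay 2270 bp downstream of the TSS, as that of Parp14 lay 2249 bp downstream, so these shifts belong to the wider site rather than to the TSS itself.

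**Figure D3:**
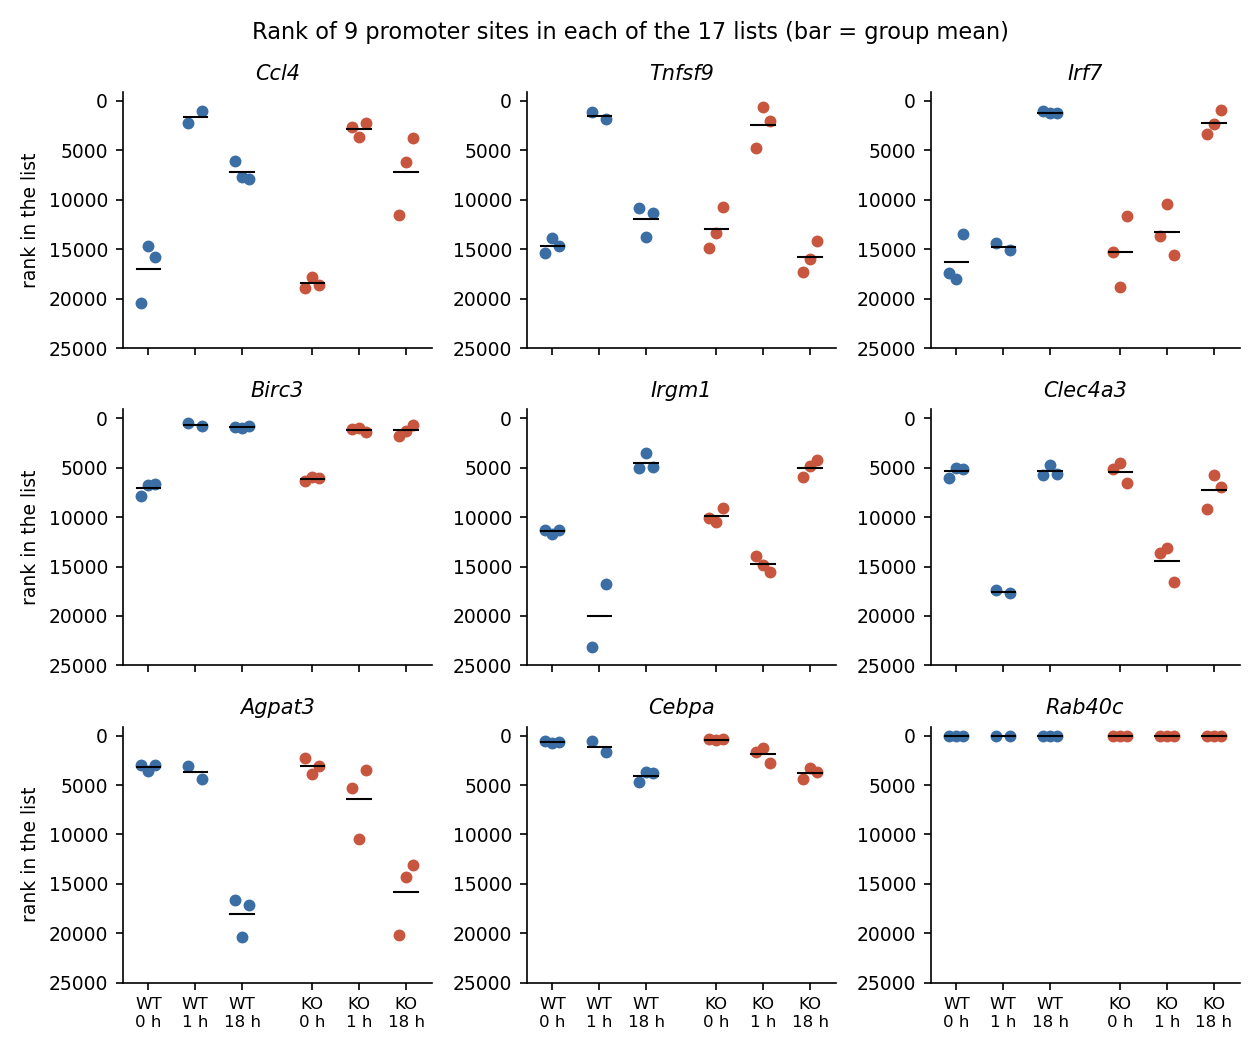
Rank of 9 constitutive promoter sites in each of the 17 lists (vertical axis, inverted, 1 = strongest peak; blue WT, red KO; black bars are group means). Ccl4, Tnfsf9 and Birc3 climb at 1 h, Irf7 only at 18 h, Clec4a3 falls at 1 h and Agpat3 and Cebpa at 18 h, and Rab40c stays within the first 35 peaks.

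Gene groups are described by their counts and medians, beside those of all members. Of 37 cytokine, chemokine and mediator genes, 36 were in the annotation and 13 had a member site. All 13 are read here against the 10.2% of tested sites that moved up: 11 moved up at 1 h and none down, with a median shift of 6735 positions. At 18 h 6 moved up and none down, beside 7.63% and 8.37% of all tested sites. Csf1, the macrophage growth factor, moved by 7153, Ebi3, a subunit of interleukin-27 and interleukin-35, by 6765, Il18 by 6735 and Tnf, already at a mean rank of 1563, by 1772 (adjusted p = 0.0076, and 0.050038 with depth as a covariate, just above the threshold). Ccl3 (195 positions, adjusted p = 0.90) and Tgfb1 (44 positions, adjusted p = 0.97) did not pass. Many of the best-known LPS genes were no members: Il1b had a promoter peak in 6 lists, Cxcl2 in 11, Nos2 in 11 and Cxcl10 in 16.

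Of 33 genes for NF-kB subunits and their feedback regulators, 26 had member sites, of which 11 moved up and none down at 1 h (median shift 916 positions), beside 10.2% up and 14.4% down of all tested sites. At 18 h 3 moved up and none down, beside 7.63% and 8.37%. Birc3, an inhibitor of apoptosis and ubiquitin ligase of the NF-kB pathway, had the smallest p of all members. It ranked 7888.5, 6763 and 6622 at WT 0 h, 492.5 and 800.5 at WT 1 h, 885.5, 972 and 787 at WT 18 h, 6318.5, 5907 and 6079 at KO 0 h, 1103.5, 1036.5 and 1421 at KO 1 h, and 1748, 1273 and 665.5 at KO 18 h. Every stimulated list lay above every list at 0 h, with shifts of 5680 ± 401 and 5541 ± 378 positions (SE; adjusted p = 3.3e-07 and 2.5e-07).

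Cd40, the co-stimulatory receptor, moved by 9863 positions at 1 h and 5899 at 18 h. Nfkb1, the p105 subunit gene, moved by 11303 at 1 h and stood at -223 at 18 h (adjusted p = 0.95). The inhibitors Nfkbia (2942 positions), Nfkbie (3808) and Tnfaip3 (3622) also moved up at 1 h, and none of these 3 was called at 18 h. With depth as a covariate the 1 h call of Nfkbie was lost (adjusted p = 0.12). The subunits Nfkb2, Rela, Relb and Rel gave shifts between -1807 and 1664 positions at 1 h, none of them past the threshold.

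The brakes of cytokine and kinase signalling held both directions. Of their 31 member sites 5 moved up and 1 moved down at 1 h, beside 10.2% and 14.4% of all tested sites, and 3 moved up and 7 down at 18 h, beside 7.63% and 8.37%. Socs3, the inhibitor of STAT3 signalling, moved by 7053 positions at 1 h and 5109 at 18 h. Dusp2, a phosphatase of MAP kinases, moved by 2591 and 2349. Zfp36l2, an mRNA-decay factor, fell from means of 866 and 669 to 8165 and 7347 at 1 h, and its relative Zfp36l1 gave a shift of -9962 positions at 18 h, from 4967 and 3845 to 13412 and 15323. At 18 h Dusp4 shifted by -6898 positions and Gadd45a by -4245.

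Members of high rank tended to shift by fewer positions, with exceptions such as Zfp36l2. The median 1 h shift was -199 positions in the best of 4 equal groups by mean rank and -2380 in the last. Immediate-early and AP-1 genes started high, with a median mean rank of 2657 over 22 sites. At 1 h 2 moved up, near the 10.2% of all tested sites, Ier3 (2510 positions, a site shared with Flot1) and Ier2 (1729 positions), and 4 moved down, Mafg with Sirt7, Fos, Atf4 and Klf10, near the 14.4% of all tested sites. With depth as a covariate none of these 6 kept an adjusted p under 0.05 (0.051 to 0.26). At 18 h none moved up and 3 moved down, Fosl2 (-2437 positions, adjusted p = 0.0096), Klf7 (-1234, adjusted p = 0.0019) and Atf3 (-566, adjusted p = 0.046), beside 8.37% of all tested sites. Ier2 ranked 3113, 3503 and 3462 at WT 0 h and 4046, 3933.5 and 2849 at KO 0 h. It ranked 1894.5 and 1634.5 in WT and 1239.5, 2182.5 and 1814.5 in KO lists at 1 h, all above those at 0 h (adjusted p = 0.019). Fos had a shift of -2765 positions (adjusted p = 0.035), with overlapping lists. Of the Nr4a family only Nr4a3 was a member. Its shifts were -1121 positions at 1 h (adjusted p = 0.036) and -1222 at 18 h (adjusted p = 0.024), and its lists overlapped. The 1 h call of Nr4a3 was lost with depth as a covariate (adjusted p = 0.30).

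Among promoters that fell at 1 h, Clec4a3, a C-type lectin of myeloid cells, was among the most regular. It ranked 6001.5, 4992.5 and 5109.5 at WT 0 h, 17413.5 and 17650 at WT 1 h, and 5763, 4699.5 and 5609.5 at WT 18 h. In KO cells it ranked 5137.5, 4542 and 6559.5 at 0 h, 13649.5, 13130 and 16571.5 at 1 h, and 9176, 5716.5 and 6961.5 at 18 h. The 1 h lists lay apart from all others, with a shift of -10601 ± 988 positions (SE; adjusted p = 2.9e-06). Slc45a4, a transporter gene, gave the largest fall, -14183 positions, from means of 8108 and 6448 to 20670 and 22253, and stood at 14928 and 18669 at 18 h.

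Kcnab2, a potassium channel subunit, shifted by -10186 positions at 1 h and stood 1611 positions above 0 h at 18 h (adjusted p = 0.38). Sgsh, a lysosomal sulfatase whose site is shared with Slc26a11, shifted by -11434, Lysmd3 by -9998 and AI467606 by -10192. Fam49b (-12035 positions), Fam78a (-10810) and Tm6sf1 (-10730) also fell, with median summits 1063 to 2253 bp downstream of the TSS. D1Ertd622e shifted by -10318.

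The macrophage lineage genes held both directions. Of 27 member sites of lineage genes, 12 moved down and 2 up at 1 h (median shift -2022 positions, against -877 for all members), beside 14.4% down and 10.2% up of all tested sites. At 18 h 5 moved down and 2 up, beside 8.37% and 7.63%. Csf1r, the receptor for macrophage colony-stimulating factor, shifted by -3211 positions at 1 h and -2989 at 18 h. Irf8, a lineage factor, shifted by -8282 at 1 h, with a median summit 5175 bp downstream of its TSS, and stood at -412 at 18 h (adjusted p = 0.86). Trem2 ranked 7517.5, 7246 and 6074 at WT 0 h and 6635.5, 6892 and 7713.5 at KO 0 h. It ranked 14417.5 and 14302.5 at WT 1 h and 10369.5, 17010.5 and 12233 at KO 1 h. At 18 h it ranked 15954, 13206.5 and 16593.5 in WT and 8178, 20443 and 18250.5 in KO lists. All stimulated lists lay below those at 0 h. Its shifts were -6769 and -8424 positions (adjusted p = 0.015 and 0.0032), and its difference between KO and WT was 216 ± 1490 positions (SE; adjusted p = 0.97). With depth as a covariate the 1 h calls of Trem2 (adjusted p = 0.22) and Csf1r (0.087) were lost.

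Cebpa, encoding a factor that primes the myeloid lineage, gave the clearest fall at 18 h in this group. It ranked 571.5, 739.5 and 695 at WT 0 h and 392.5, 485 and 340.5 at KO 0 h, then 4702.5, 3731 and 3823.5 at WT 18 h and 4399.5, 3270 and 3706.5 at KO 18 h. The shift was -3402 ± 332 positions (SE; adjusted p = 4.3e-06). Zeb2 went the other way, up by 7052 positions at 1 h, and Adgre1, encoding F4/80, moved up by 3120 at 1 h and 2744 at 18 h. The 1 h call of Adgre1 was lost with depth as a covariate (adjusted p = 0.40).

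At 18 h the class stood close to its 0 h place in WT cells. The median member rank was 4231 ± 66 at WT 18 h (SD, n = 3) and 5046 ± 768 at KO 18 h (SD, n = 3), where the narrow-peak list gave 5925 and the other 2 gave 4501 and 4715. The median shift was -449 positions for members, 173 for distal sites and -305 for all sites, and without the narrow-peak list it was -138 for members and -67 for all sites. In limma 194 members moved up (2.99%, against 7.63% of all sites tested) and 434 moved down (6.69%, against 8.37%). Ranked among the members alone, 334 moved up and 333 down (50.1% upward, against 30.9%), a balance again largely set by construction. With the centred log2 fold 410 moved up and 476 down (46.3% upward). The percentile in the whole deposited list gave 20 and 191 (9.48% upward), and array weights gave 416 and 942.

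The count moved up was 311 when KO 18 h replicate 1 was left out. The downward count was 705 when KO 18 h replicate 2 was left out, 279 for WT 0 h replicate 1 and 284 for replicate 3 of that group. By the simpler measure of lists that do not overlap, 223 members lay above and 670 below all their 0 h lists at 1 h (against 8.76% and 9.68% of all tested sites), and 160 and 294 at 18 h (against 5.57% and 5.80%). These were 3.44%, 10.3%, 2.47% and 4.53% of the members.

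The promoters moved up at 18 h included interferon-induced genes. Of 45 member sites of the interferon response 19 moved up and 1 down at 18 h (median shift 2220 positions), beside 7.63% up and 8.37% down of all tested sites. At 1 h 10 moved up and 2 down (median shift 442), beside 10.2% and 14.4%. Irf7, the master factor of type I interferon induction, whose site is shared with Phrf1, ranked 17370, 17966.5 and 13493 at WT 0 h, 14417.5 and 15059.5 at WT 1 h, and 1013.5, 1255 and 1264.5 at WT 18 h. In KO lists it ranked 15282.5, 18806 and 11660, then 13649.5, 10441 and 15545, then 3311.5, 2385 and 919.5. The 0 h and 1 h lists overlapped and the 18 h lists lay above all of them. The shift at 18 h was 14072 ± 1297 positions (SE; adjusted p = 2.8e-06), against 1788 at 1 h (adjusted p = 0.37).

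Zbp1, a sensor of Z-form nucleic acids whose window above holds 4 ISRE cores in 2 overlapping pairs, moved by 13452 positions at 18 h. Its shift of 5656 at 1 h (adjusted p = 0.018) did not pass with depth as a covariate (adjusted p = 0.17). Mx1, an antiviral GTPase, moved by 12558 at 18 h and Cmpk2 by 7112 and then 11548. Rsad2 (viperin), with an ISRE core and an AP-1 match upstream, moved by 9982 at 1 h and 10824 at 18 h, from means of 13517 and 11958 to 1773 and 2055. The schlafen gene Slfn3 moved by 13194 at 18 h. The site of Plgrkt and Cd274, the gene of the checkpoint ligand PD-L1, moved by 11297 positions at 18 h and by 1713 at 1 h (adjusted p = 0.46).

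A few promoters were called in opposite directions at the 2 times. Irgm1, an immunity-related GTPase, ranked 11303.5, 11690.5 and 11264 at WT 0 h, 23185 and 16738 at WT 1 h, and 5061, 3542.5 and 4893 at WT 18 h. In KO lists it ranked 10102, 10483.5 and 9065 at 0 h, 13914.5, 14876.5 and 15545 at 1 h, and 5924.5, 4871 and 4179.5 at 18 h. The 3 times did not overlap, with shifts of -6719 positions at 1 h (adjusted p = 0.00045) and 5906 at 18 h (adjusted p = 0.00097). Tlr6, a co-receptor of Toll-like receptor 2, had shifts of -1730 and 2252 positions (adjusted p = 0.021 and 0.0037). S100a3 went up by 5795 at 1 h and down by 10824 at 18 h (adjusted p = 0.013 and 8.9e-05), with a median summit 940 bp from its TSS. With depth as a covariate the 1 h calls of Tlr6 (adjusted p = 0.15) and S100a3 (adjusted p = 0.15) were lost.

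The largest falls at 18 h were in other kinds of genes. Agpat3, an enzyme of phospholipid synthesis, ranked 2974.5, 3607.5 and 3013.5 at WT 0 h and 2222.5, 3933.5 and 3087.5 at KO 0 h. It ranked 16656, 20323.5 and 17153.5 at WT 18 h and 20182, 14306 and 13104.5 at KO 18 h, with no overlap, a shift of -13814 ± 1367 positions (SE; adjusted p = 5.0e-06). Trf, encoding transferrin, shifted by -13050 positions, St8sia4, a polysialyltransferase, by -12833, and Lrrk2, a kinase, by -11938, and none of these 3 was called at 1 h. Trf, at -4017 positions at 1 h (adjusted p = 0.068), was called there with depth as a covariate (adjusted p = 0.030) and with the centred log2 fold (0.038). Nanos1 (-10723), Nrp1 (-10538, median summit 1967 bp upstream of the TSS), the histone gene Hist1h3e (-10377), Rgs3 (-10215) and Slc25a4, the ADP/ATP carrier (-10122), followed.

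**Figure D4:**
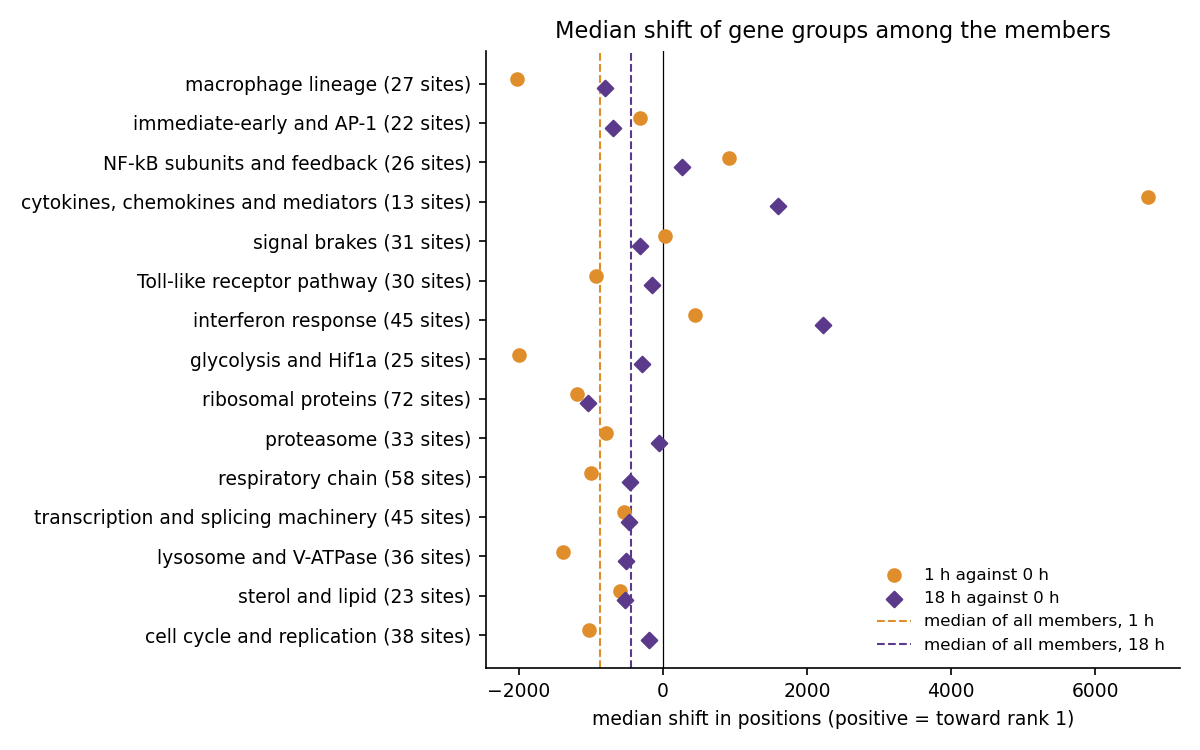
Median rank shift of gene groups with at least 10 member sites (horizontal axis, positions, positive toward rank 1; number of sites in brackets) at 1 h (orange circles) and 18 h (purple diamonds) of LPS. Dashed lines are the medians of all members, -877 and -449 (-138 at 18 h without KO 18 h replicate 1), and the cytokine group stands at 6735 at 1 h and the interferon group at 2220 at 18 h.

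Counts of housekeeping groups are read against all tested sites, of which 10.2% moved up and 14.4% down at 1 h and 7.63% and 8.37% at 18 h. None of the 72 ribosomal protein sites moved up at 1 h and 8 moved down (median shift -1194 positions), and 2 moved down at 18 h. Of the 33 proteasome sites 1 moved down at 1 h, Psma1 (adjusted p = 0.038, and 0.18 with depth as a covariate), and 1 up at 18 h, Psme1, which encodes an interferon-induced activator subunit (6306 positions, adjusted p = 0.0039). Of 58 respiratory chain sites 6 moved down at 1 h, of 45 for transcription and splicing 3, of 23 for sterol and lipid synthesis 3 and of 38 for cell cycle and replication 4, and none in these 4 groups moved up at 1 h. The downward counts were thus near the share of all sites or below it.

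At 1 h 14.4% of all tested sites moved down and 10.2% up. Lysosomal and V-ATPase genes had 10 of 36 sites moved down at 1 h, among them Psap (-7051 positions) and Lipa (-5469), and 1 up, Ctsc (6043). Glycolytic genes had 8 of 25 moved down, among them Tpi1 (-6498, shared with Spsb2) and Slc2a1 (-5580). Slc2a6, an LPS-induced sugar transporter, was the only one moved up, by 8397 positions at 1 h and 6237 at 18 h. Of 30 sites of the Toll-like receptor pathway 3 moved up at 1 h, Ikbkb, Cd14 (4479 positions) and the site shared by Acaa1a and Myd88, and 4 moved down, Tlr4 (-6082, adjusted p = 0.047), Tlr6, the Irf3 site and the Ripk1 site, counts near those shares. With depth as a covariate the 1 h calls of Lipa (adjusted p = 0.053), Ctsc (0.069), Tpi1 (0.26), Slc2a1 (0.33), the Acaa1a and Myd88 site (0.34), Tlr4 (0.62), Tlr6 (0.15) and Ripk1 (0.14) were lost.

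Motif shares differed between members moved up and down. AP-1 was found in 17.9% of those moved up at 1 h and 2.57% of those moved down, and NF-kB in 16.2% and 1.93%. At 18 h the ISRE core was found in 17.01% of those moved up and 1.61% of those moved down. Read the other way, 17.3% of the 249 members with AP-1, 15.9% of the 246 with NF-kB and 10.9% of the 267 with an ISRE core moved up at 1 h, beside 3.70% of all members and 10.2% of all tested sites. Downward calls at 1 h were made at 24 members with AP-1 (9.64%), 18 with NF-kB (7.32%) and 31 with an ISRE core (11.6%), beside 14.4% of all members. At 18 h, 23 members with AP-1 moved up (9.24%) and 26 down (10.4%), 24 with NF-kB moved up (9.76%) and 17 down (6.91%), and 33 with an ISRE core moved up (12.4%) and 7 down (2.62%). Of all tested sites 7.63% moved up and 8.37% down at 18 h. The members moved up were also poorer in CpG, with a CpG ratio over 0.6 in 40.4% of them at 1 h and 34.5% at 18 h, against 75.9% and 71.4% of those moved down. These are counts over sites and were not tested. Most lacked these matches: 39 of 240 members moved up at 1 h held an NF-kB match and 43 an AP-1 match. A site took the rank of its best peak, which can lie away from the TSS. Asking for that peak's summit within 1 kb of a TSS kept 6188 of 6488 members. It kept 189 of 240 moved up and 865 of 935 moved down at 1 h, and 158 of 194 and 394 of 434 at 18 h.

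**Figure D5:**
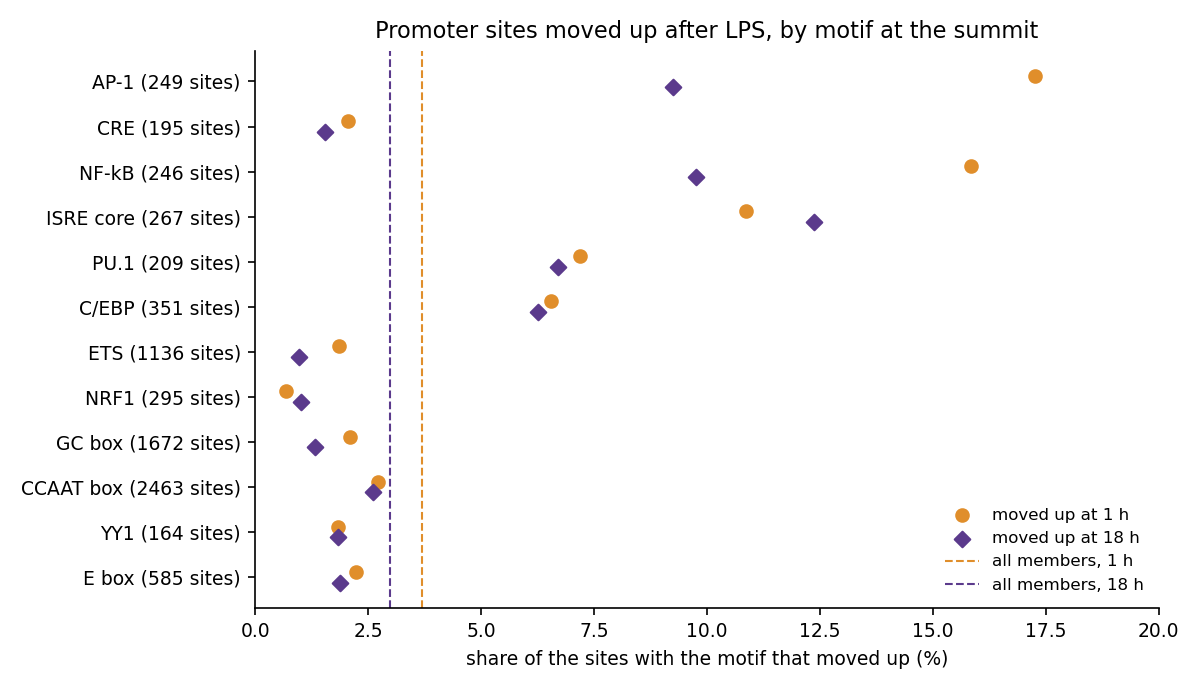
Share of members holding each motif within 100 bp of the summit that moved up at 1 h (orange circles) and 18 h (purple diamonds), in percent, for motifs found in at least 100 members (number in brackets). Dashed lines are the shares of all members, 3.70% and 2.99% (10.2% and 7.63% for all tested sites, not drawn), and AP-1, NF-kB and the ISRE core lie farthest to the right, with downward calls not shown.

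Few promoters differed in place between genotypes. In limma 7 members (0.108%) differed between KO and WT over the 3 times, against 0.183% of all sites tested. An unadjusted p under 0.05 was found for 513 of 6488 members, where a share of 0.05 is expected if nothing differs. All 7 stood higher in KO lists on average, as did every other called site except a distal site on chromosome 15 (-2668 positions). The median difference over all members was -293 positions. Ifi204, a DNA sensor of the interferon-inducible p200 family, ranked 6118.5, 5568 and 7086.5 at WT 0 h, 5848.5 and 3708 at WT 1 h, and 3234.5, 3290 and 2258.5 at WT 18 h. In KO lists it ranked 2076.5, 1146 and 1089.5, then 696.5, 1154.5 and 1562.5, then 798.5, 711.5 and 627.5. Every KO list stood above every WT list, by 3559 ± 376 positions on average (SE; adjusted p = 0.00056). The p200 genes are near copies of each other. The entry names record a mapping quality of 20, and sharing of reads between the copies was not tested.

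Kif11, a mitotic kinesin, stood 6645 ± 963 positions higher in KO (SE; adjusted p = 0.0071), with ranks from 6965.5 to 14417.5 in WT and from 1397.5 to 5022 in KO lists, which did not overlap. The others were the site of 1700029J07Rik and Ufsp2 (2913 positions, adjusted p = 0.0091), Fcrl1 (5913, adjusted p = 0.024), the histone site of Hist2h2aa2 and Hist2h3c2 (6755, adjusted p = 0.038), Cd244a (2969, adjusted p = 0.040) and Hist4h4 (5810, adjusted p = 0.045). Some calls shared a chromosome: Cd244a (chr1:171558295) with Ifi204 (chr1:173765919), and Fcrl1 (chr3:87376101) with the Hist2h2aa2 site (chr3:96235476). Distal sites were called beside Kif11 (chr19:37374993), ending at 37291836, and near Nr4a1 (chr15:101265724), ending at 101585081. Whether loss of Nur77 or other inherited differences between the mice lie behind these calls was not tested. With depth as a covariate, Ifi204 and Kif11 kept an adjusted p under 0.05 (0.0045 and 0.013) and the other 5 did not (0.077 to 0.28). The percentile in the whole deposited list left 1 member called for genotype. Depth together with the replicate number as a block left 0. WT and KO lists overlapped for Fcrl1, the Hist2h2aa2 site, Cd244a and Hist4h4.

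In the limma model of all 17 lists, no member was called for a response to LPS that differs by genotype. The difference of the 1 h shifts was called at 0 members (0.00% of all tested sites) and that of the 18 h shifts at 0 (0.00%), with smallest adjusted p-values of 0.55 and 0.34 in limma. At an unadjusted p under 0.05 there were 369 and 296 of 6488 members, where a share of 0.05 is expected if nothing differs. The median SE of these differences was 2119 and 1998 positions, which limits how small a difference could be seen. Without WT 1 h replicate 3, which leaves the shallowest list as the only one of its group and assumes that it varies like the others, 147 members were called for the 1 h difference and 63 for KO against WT. The 18 h difference was called at 7 members with array weights, and at 3 and 1 when KO 18 h replicate 2 and replicate 1 were left out. The 1 h difference was called at 1 member when all sites in at least 2 lists were fitted. The count for KO against WT was 14 when KO 18 h replicate 1 was left out, and 3 or 4 when any of 11 other lists was.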

How the data were processed

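ATAC-seq peak lists of 17 samples were analysed. Per the paper's methods the authors trimmed reads with cutadapt (2.6), mapped them to mm10 with the snakeATAC pipeline and called peaks, and DiffBind (3.0.15) is named in the submitters' processing notes. The entry names record a mapping quality of 20, removal of mitochondrial and duplicate reads and a q-value limit of 0.001. The peak caller and the shift applied to transposase cuts are not given in the sources used here. Peaks had been called per sample. In the deposited lists the fold column is a ratio, (pileup + 1) / (background + 1), and the p-value and q-value columns are on the −log10 scale. The q-value and the score, a multiple of −log10 q deposited with each peak, were used for no result.

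Whole-read summit pileups and the background were recovered from the fold ratio (100% of values whole within 0.05). Peaks were ranked by −log10 p, with mid-ranks for ties, and a site took the rank of its best-ranked peak in each list. TSSs came from GENCODE M21 and sequences from GRCm38.p6. Mean ranks of 6 groups were fitted in limma (3.58.1, R 4.3.3) with a trended prior over the 10404 sites found in all lists, with Benjamini-Hochberg adjustment and a threshold of 0.05. Since the rule requires a peak in every list, promoters that opened or closed past the last rank are no members. Alternatives are given in the closing section. Sites were named by genes within 1 kb. Named were the 10 largest shifts in each direction and time with the same sign in both genotypes, the 5 smallest p-values for genotype, the 10 best mean ranks, the 5 smallest and largest spreads, and up to 4 called sites per gene list and direction. Some items that this rule names are not reported here. Other genes of these lists, and Cd244a, Hist4h4 and Gm10800, were named after their values were seen. The members, motifs and gene lists were chosen with earlier results of these data known. Summit reads carry no molecular identifiers, so their number bounds counting error only.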

Additional observations from a re-analysis of the deposited data

How the results depend on the processing

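Counts of members called and the named calls both depended on the scale, the depth and single lists. Of 87 named calls at 1 h, 20 held in every alternative that kept their site as a member, 49 in every fit that left out 1 list and 42 with depth as a covariate. Of 67 at 18 h these were 25, 43 and 61, and of 5 for genotype 0, 3 and 2. The alternative that asks for a summit within 1 kb of a TSS kept 75 of the 87 sites called at 1 h and 60 of the 67 at 18 h. None of these reversed its direction. The cause of the changes was not tested, except that fewer lists or members enter some fits by construction.

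The values below stand beside 240 members moved up and 935 down at 1 h, 194 up and 434 down at 18 h, 7 for KO against WT and 0 for each difference of shifts. Ranks among the members alone gave 405 up and 334 down at 1 h and 334 up at 18 h. The centred log2 fold gave 410 up at 18 h and 11 for genotype. The percentile in the whole deposited list gave 33 up and 466 down at 1 h, 20 up and 191 down at 18 h and 1 for genotype. Depth as a covariate gave 130 up and 245 down at 1 h and 2 for genotype. Array weights gave 416 up and 942 down at 18 h and 7 for the difference of 18 h shifts. All sites in at least 2 lists gave 11 for genotype and 1 for the difference of 1 h shifts.

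Leaving out 1 list at a time gave 550 to 1715 down and 178 to 352 up at 1 h, 143 to 311 up and 279 to 705 down at 18 h, 3 to 63 for genotype, 0 to 147 for the difference of 1 h shifts and 0 to 3 for that of 18 h shifts. The lists behind the changes over 1.5 times are named in the report, except for genotype, where 3 or 4 members were left after leaving out any list of WT 0 h or WT 18 h, WT 1 h replicate 1-2, KO 0 h replicate 1 or 2, or KO 1 h replicate 1 or 3. The median 18 h shift of members, -449 positions, was -138 without KO 18 h replicate 1 and -214 with array weights. The difference of 18 h shifts was 1 without KO 18 h replicate 1 and 3 without KO 18 h replicate 2.

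With the replicate number as a block, 147 members moved up and 427 down at 1 h and 2 differed by genotype. The numbers do not pair the lists: over 35 same-numbered pairs the correlation of deviations ran from -0.16 to 0.12, with 2 over 0.1. Of 3 alternatives chosen after seeing the data, depth as a covariate without the narrow-peak list gave 355 up at 18 h and 1 for the difference of 18 h shifts, leaving out the 3 lists under 1 background read per kb gave 504 down at 1 h and 4 for genotype, and the replicate block with depth gave 101 up and 143 down at 1 h and 0 for genotype.

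A peak covering at least 50% of the merged site in every list left 5 members, too few for a fit, which was not run. The other definitions kept 4581 to 6438 members.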
